A study of Homo sapiens with 6 samples.

Results

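Interferon-stimulated genes were examined in SKOV3 and A2780s, which are established human ovarian adenocarcinoma cell lines. The set was a list of 44 gene symbols, and all 44 were found among the 29123 gene names of the array, where they were covered by 65 probes. For a gene with several probes, the probe with the highest mean level over the 6 arrays was taken. Each array was hybridized with RNA of a modified clone and RNA of the Ctrl clone of the same line, 1 in Cy3 and 1 in Cy5, and every pair of RNAs was run on a pair of arrays with the dyes exchanged. The SKOV3 clones sh-S1 and sh-S2 had been transduced with lentiviral pLKO.1-puro carrying shRNA against Hic-5 (TGFB1I1), a focal adhesion scaffold protein of the paxillin family, and the SKOV3 Ctrl with the same vector carrying a scramble sequence, and all of them were selected with puromycin. The A2780s clone pCMV-Hic-5 had been transfected with human Hic-5 in pCMV6 and the A2780s Ctrl with empty pCMV6, and both were selected with neomycin. Both lines were grown in RPMI 1640 with fetal calf serum, and no interferon treatment is given in the labels. Each RNA came from 1 stable clone, so a difference between clones cannot be told apart from the effect of the construct, and the labels do not say that the clones were grown as separate cultures.

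Type I interferons act on nearly all cells and type III interferons mainly on epithelial cells, and the receptors of both activate the kinases JAK1 and TYK2. These phosphorylate STAT proteins, among them STAT2, which with IRF9 forms part of a complex that binds a promoter element called the interferon-stimulated response element (ISRE), while type II interferon acts on the gamma-activated site (GAS). The genes switched on in this way encode sensors of viral RNA, proteins that block viral entry, translation or budding, and regulators that raise or limit the response. In tumour cells many of them are also transcribed without added interferon.

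All values below are log2 ratios of the modified clone over its Ctrl, so that 1 is a doubling and -1 a halving, or normalized log2 levels of a single RNA where this is said. In SKOV3 a gene was called when the limma test of the clones against 0 gave p at or below 0.05 after Benjamini-Hochberg adjustment over all probes tested and the change was at least 2-fold. The n is 2 clones, both compared with the same Ctrl RNA, whose own spread does not enter the test. Each SE is that of the limma test, which draws the spread between the 2 clones towards the spread typical of all probes tested. In A2780s there was 1 clone and no test, and a gene was called when its mean ratio reached 1.5-fold with the same direction on both arrays. The 4 SKOV3 arrays were on 1 slide and the A2780s arrays on another, so effects of the slide cannot be told apart from those of the line. The median signal over background was 9.52 to 25.4 in Cy5 and 373 to 531 in Cy3 on the SKOV3 arrays, and 325 to 568 over both dyes on the A2780s arrays.

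The check of the labels came out differently in the 2 lines. TGFB1I1 had ratios of -0.16 and 0.12 on the sh-S1 arrays and of -0.12 and 0.28 on the sh-S2 arrays (mean 0.03, SE 0.09, adjusted p = 0.855), so it was not measurably lower in either RNA labelled as a knockdown. In A2780s the ratios of TGFB1I1 were 4.05 and 2.60, a 10.0-fold higher mean in the RNA labelled pCMV-Hic-5. The mean normalized level of TGFB1I1 was 8.23 in the SKOV3 Ctrl and 12.8 in the A2780s Ctrl, which were on different slides. By Western blot, the paper reports strong Hic-5 protein in SKOV3 and rather low Hic-5 protein in A2780s. It also states that the SKOV3 knockdown clones were selected after their Hic-5 mRNA and protein had been checked, by PCR and Western blot. Because TGFB1I1 was not measurably lower in SKOV3, every direction given for SKOV3 is that of RNAs known by their labels, sh-S1 and sh-S2. Markers of the epithelial and Mullerian lineages also differed between these RNAs and the SKOV3 Ctrl. PAX8, a Mullerian transcription factor, had a mean ratio of -3.58, and the keratin genes KRT8, KRT18 and KRT19 had ratios of -2.14, -3.53 and -2.55, all called lower. EPCAM and CDH1 were not tested in SKOV3, and WT1 and MUC16 were not called. Of the 8 leukocyte, endothelial and fibroblast markers on the list, 5 were tested in SKOV3 and none of these was called, while 3 were not tested for low signal, and the 8 ratios lay between -0.14 and 0.16. In A2780s KRT18 was called higher, with a mean of 0.59, and KRT8 and PAX8 were not called. The part of these lineage genes in the results below was not tested.

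The interferon-stimulated genes did not move as a block in SKOV3. IFIT1 and IFITM1 were higher in both RNAs labelled as knockdowns, and IFI27, IRF7, PLSCR1, BST2, HERC5 and OAS3 were lower. IFIT1 rose 7.04-fold and IFI27 fell 8.29-fold, so members of the same response were called in opposite directions. Of the 44 members, 39 passed the filter on low signals and were tested, 2 were called higher (5.13%) against 3.47% of all genes tested, and 6 were called lower (15.4%) against 4.59% of all genes tested. By adjusted p alone, without the fold threshold, 5 members were higher (12.8%, all genes 16.2%) and 16 lower (41%, all genes 16.3%), and 18 did not pass. Of the 39 members tested, IFIH1, OAS3, TRIM22 and SAMD9 passed the filter through the Ctrl alone, as did 1134 of the 18879 genes tested, which favours a lower ratio in the clones. Passing through a clone alone favours a higher ratio, and this held for 1 member and for 1703 of all genes tested. The members that passed through the Ctrl alone include 1 of the 6 called lower (OAS3) and 2 of the 16 lower by adjusted p (OAS3 and SAMD9). OAS1, GBP2, RSAD2, SAMD9L and EPSTI1 were not tested because their signals were too low. The median ratio over all 44 members was -0.21 (sh-S1 -0.18, sh-S2 -0.22), beside 0.00 over all genes. RNA of bulk cultures was measured, and fewer cells that express a gene cannot be told apart from less RNA of it per cell.

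**Figure D1:**
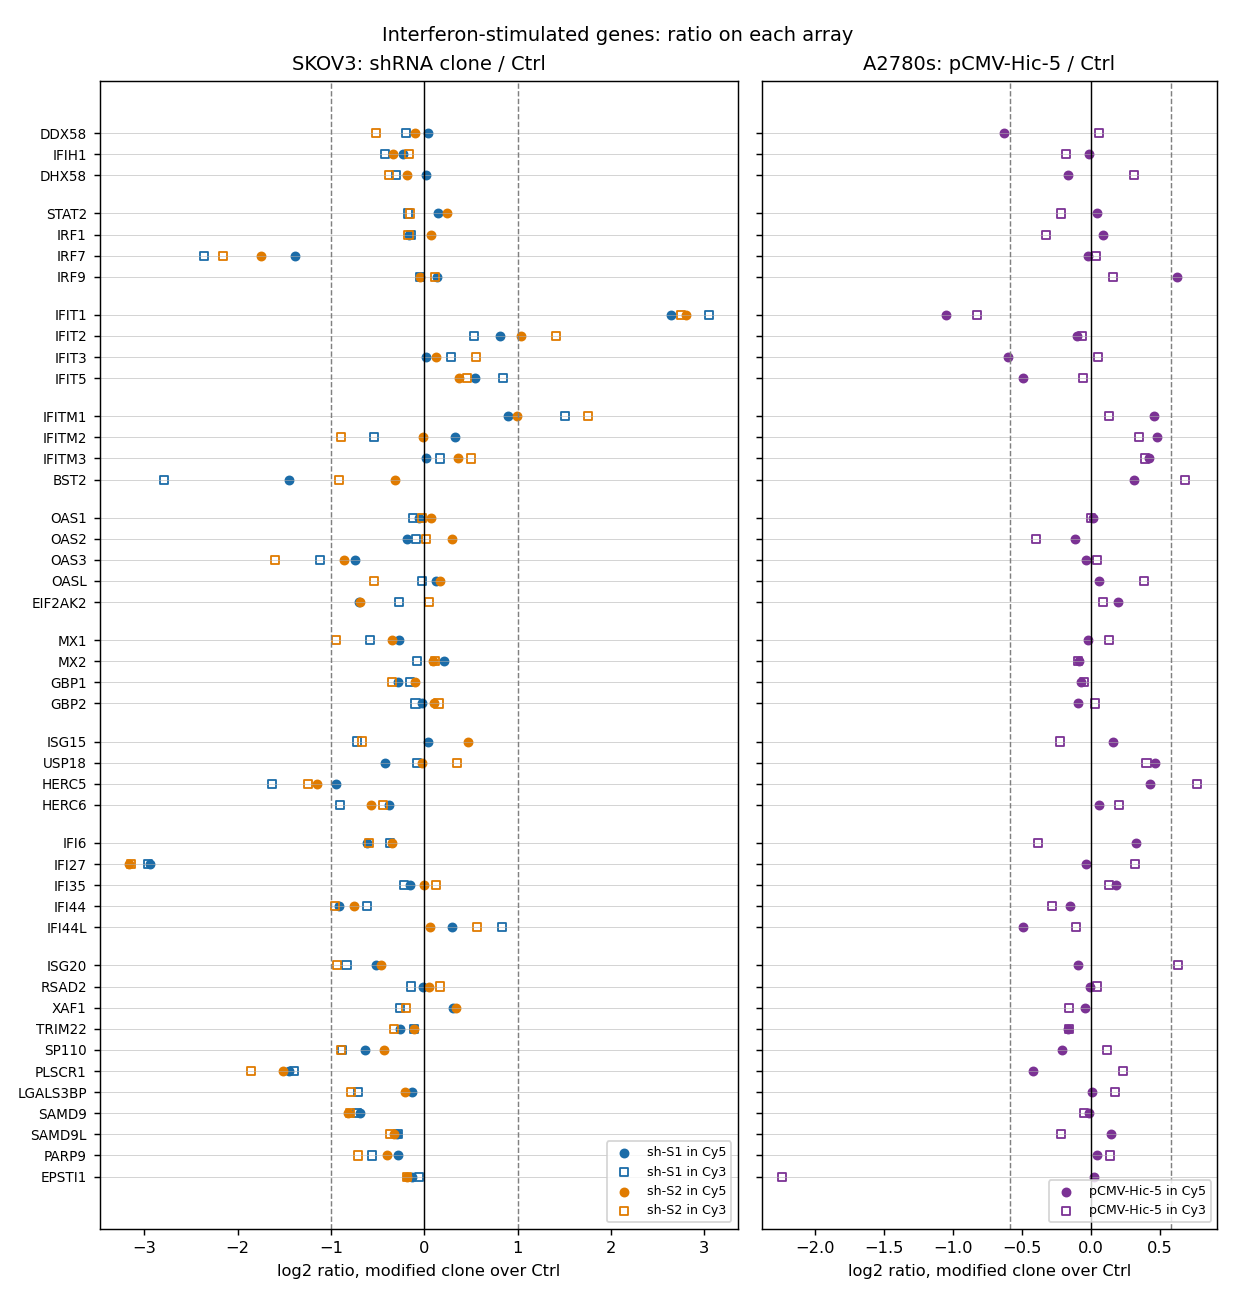
Log2 ratio of modified clone over Ctrl (x axis) for each of the 44 interferon-stimulated genes (y axis, grouped by role) on each of the 4 SKOV3 arrays (left) and the 2 A2780s arrays (right, with a narrower x range). Filled circles are arrays with the clone in Cy5, open squares arrays with the clone in Cy3, and dashed lines mark 2-fold (left) and 1.5-fold (right). IFIT1 lies near 2.8 and IFI27 near -3.1 on every SKOV3 array, while most members lie within the dashed lines, and the A2780s point of EPSTI1 at -2.23 is a probe that was not tested.

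The IFIT genes encode proteins with tetratricopeptide repeats that bind viral RNA or translation factors, and 3 of the 5 members that were higher by adjusted p belong to this family. IFIT1, which binds RNA lacking methylation of the cap, had ratios of 2.65 and 3.05 on the sh-S1 arrays and of 2.80 and 2.76 on the sh-S2 arrays. All 4 ratios lay well above 0, and the mean of 2.81 (SE 0.09, n = 2 clones) had an adjusted p of 8.71e-06. The level of IFIT1 was 10.81 to 11.02 in the Ctrl over the 4 arrays, which repeat 1 RNA, and 13.5 to 13.9 in the clones. IFIT2, which promotes apoptosis and restricts viral translation, had ratios of 0.81, 0.54, 1.04 and 1.41 in the same order of arrays. Its mean of 0.95 (SE 0.14) passed the test (adjusted p = 0.00341) but fell short of 2-fold, and a second, dimmer probe of IFIT2 with a mean ratio of 0.17 was not tested. IFIT5 had a mean of 0.55 (SE 0.11, adjusted p = 0.00918), also short of 2-fold, while its other probe had a mean of 1.22 (adjusted p = 0.000239) and was past both thresholds. IFIT3, which stabilizes IFIT1 in a complex, had a mean of 0.25 (SE 0.10) and did not pass (adjusted p = 0.113).

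Proteins of the IFITM family sit in cell membranes and hinder fusion of enveloped viruses, and BST2 (tetherin) holds budding virus at the cell surface. IFITM1 had ratios of 0.89 and 1.50 for sh-S1 and of 0.99 and 1.76 for sh-S2. It was higher on all 4 arrays, with a mean of 1.29 (SE 0.10, adjusted p = 0.000209), a 2.44-fold difference, while the arrays that had the clone in Cy5 gave 0.94, short of 2-fold. IFITM2 had a mean of -0.28 (adjusted p = 0.121) and IFITM3 of 0.26 (adjusted p = 0.134), and neither passed. BST2 had ratios of -1.45 and -2.78 for sh-S1 and of -0.31 and -0.91 for sh-S2. All 4 were below 0, but the clones differed widely, with means of -2.12 and -0.61 and an SD of 1.06. The mean of -1.36 (SE 0.31) was called (adjusted p = 0.0178). Without sh-S1 the ratio was -0.61 and the call was lost, and it was also lost with the clone in Cy5 only (-0.88).

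IFI27 encodes a small hydrophobic mitochondrial protein linked to apoptosis, and its ratios in SKOV3 were -2.94 and -2.96 on the sh-S1 arrays and -3.17 and -3.14 on the sh-S2 arrays. The 4 values lay between -3.17 and -2.94, and the mean of -3.05 (SE 0.10) had an adjusted p of 8.71e-06. A second probe of IFI27 had a mean of -2.77 (adjusted p = 1.11e-05). The level of IFI27 lay between 13.3 and 13.7 in the Ctrl and between 10.16 and 10.67 in the clones. The other IFI genes changed less. IFI44 had a mean of -0.81 (SE 0.09, adjusted p = 0.00118) and IFI6, an inhibitor of apoptosis, of -0.48 (SE 0.09, adjusted p = 0.00906), both lower but short of 2-fold. IFI44L went the other way, with a mean of 0.44 (SE 0.11, adjusted p = 0.0213), and IFI35 had a mean of -0.06 (adjusted p = 0.734).

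Among the transcription factors, IRF7, the factor that drives induction of type I interferon genes, was lower. Its ratios were -1.38 and -2.36 for sh-S1 and -1.75 and -2.16 for sh-S2, all of them below -1, with a mean of -1.91 (SE 0.09, adjusted p = 3.46e-05). The other probe of IRF7 was near background and had a ratio of -0.05, and the mean over both probes was -0.98, just short of 2-fold. STAT2, IRF1 and IRF9 had means of 0.02, -0.10 and 0.04 and did not pass, with adjusted p of 0.503 to 0.928. The RNA sensors DDX58 (RIG-I), IFIH1 (MDA5) and DHX58 (LGP2) had means of -0.19, -0.28 and -0.21, and none of them passed (adjusted p 0.0623 to 0.219).

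OAS proteins make 2-5A, which activates RNase L, and EIF2AK2 (PKR) halts translation. OAS3 had ratios of -0.74 and -1.12 for sh-S1 and of -0.86 and -1.60 for sh-S2, with a mean of -1.08 (SE 0.11, adjusted p = 0.000679). It was lower on all 4 arrays, on 2 of which it was not well above background in the clone. The call was lost without sh-S2 (-0.93), with the clone in Cy5 only (-0.80) and as a mean over its probes (-0.74). EIF2AK2 had a mean of -0.40 (SE 0.10, adjusted p = 0.0225). Its other probe had ratios of 0.59 and -0.51 for sh-S1 and of 0.37 and -0.89 for sh-S2. The sign of that probe followed the dye, and its mean of -0.11 did not pass (adjusted p = 0.521). OAS2 and OASL had means of 0.01 and -0.07 that did not pass. The GTPase MX1, which traps viral nucleocapsids, had a mean of -0.54 (SE 0.10, adjusted p = 0.00872), while MX2 and GBP1 had means of 0.09 and -0.22 and did not pass.

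ISG15 is a ubiquitin-like modifier, HERC5 the main ligase that attaches it to proteins and USP18 the protease that removes it. HERC5 had ratios of -0.95 and -1.63 for sh-S1 and of -1.14 and -1.25 for sh-S2. It was lower on every SKOV3 array, with a mean of -1.24 (SE 0.09, adjusted p = 2e-04), a 2.37-fold difference, and was well above background in the clones on 3 of 4 arrays. Its neighbour HERC6 had a mean of -0.57 (SE 0.10, adjusted p = 0.00516), short of 2-fold. ISG15 had ratios of 0.04 and -0.72 for sh-S1 and of 0.47 and -0.67 for sh-S2, so that its sign followed the dye and not the clone, and its mean of -0.22 did not pass (adjusted p = 0.17). USP18 had a mean of -0.04 (adjusted p = 0.854).

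Of the 11 other effectors, 8 were tested and 6 of these were lower by adjusted p (all genes 16.3%), of which PLSCR1 reached 2-fold (all genes 4.59%). PLSCR1, a phospholipid scramblase that also restricts virus entry, had ratios of -1.44 and -1.40 for sh-S1 and of -1.51 and -1.86 for sh-S2. All 4 lay below -1, with a mean of -1.55 (SE 0.11, adjusted p = 0.000131). SAMD9, SP110 and the exonuclease gene ISG20 had means of -0.76, -0.71 and -0.68, and PARP9 and LGALS3BP of -0.48 and -0.46, with adjusted p of 0.0016 to 0.0117. A dimmer probe of SAMD9 that was also tested had a mean of -0.19 and did not pass (adjusted p = 0.189). XAF1 and TRIM22 had means of 0.05 and -0.20 and did not pass. In all, the 10 members that were lower by adjusted p but short of 2-fold had means of -0.81 to -0.40, and the 18 that did not pass lay between -0.28 and 0.26.

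With the processed intensities of the scanner software in place of those used here, 18 members were called in SKOV3, 4 higher (10.3%, all genes 8.2%) and 14 lower (35.9%, all genes 9.08%), and they included the 8 called here. Several ratios were larger in size under that setting, at -3.69 for HERC5, -2.79 for OAS3, -2.78 for IRF7, -2.52 for PLSCR1 and 1.82 for IFIT2, which was then called, and the change of HERC5 was larger than that of IFI27, at -3.34. With median centring in place of loess, HERC5 was at -2.05 and OAS3 at -1.35. With the clone in Cy5 only, 5 members were called, 1 higher (2.56%, all genes 3.91%) and 4 lower (10.3%, all genes 4.98%).

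The promoters of the called members were set beside these values because the ISRE is the promoter element through which interferon acts on many of these genes. Promoter sequences were taken from RefSeq (GRCh38.p14) as the 250 bases before the annotated start, and 34 of the 44 members had an entry. DHX58, IRF7, IFIT2, IFITM2, OAS2, OASL, MX2, GBP2, USP18 and TRIM22 had none. The core of the ISRE was searched on both strands as GAAA and GAAA with any 2 bases between them (TTTC and TTTC on the other strand). It was present in 20 of the 34 promoters (58.8%) and in 839 of all 27305 promoters (3.07%). The GAS core, TTC and GAA with any 3 bases between them, was present in 8 of the 34 (23.5%) and in 1850 of all promoters (6.78%). An ISRE core stood in both of the members called higher, in all 5 with an entry that were called lower, in 12 of 23 tested members that were not called and in 1 of 4 that were not tested. The promoters of called members are shown 5′ to 3′ on the strand of the gene, with ISRE core matches in capitals, for 2 genes that rose and 3 that fell.
IFIT1 (chr10:89392373-89392622, plus strand): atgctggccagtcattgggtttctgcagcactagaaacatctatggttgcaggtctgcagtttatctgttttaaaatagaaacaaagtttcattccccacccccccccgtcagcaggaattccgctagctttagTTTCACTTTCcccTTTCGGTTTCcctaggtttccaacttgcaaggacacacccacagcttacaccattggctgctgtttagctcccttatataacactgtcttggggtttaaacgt
IFITM1 (chr11:313790-314039, plus strand): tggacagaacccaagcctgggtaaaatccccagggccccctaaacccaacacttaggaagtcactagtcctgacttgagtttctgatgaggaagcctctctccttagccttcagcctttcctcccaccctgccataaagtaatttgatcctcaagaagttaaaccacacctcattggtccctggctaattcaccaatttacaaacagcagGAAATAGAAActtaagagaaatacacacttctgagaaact
IFI27 (chr14:94110486-94110735, plus strand): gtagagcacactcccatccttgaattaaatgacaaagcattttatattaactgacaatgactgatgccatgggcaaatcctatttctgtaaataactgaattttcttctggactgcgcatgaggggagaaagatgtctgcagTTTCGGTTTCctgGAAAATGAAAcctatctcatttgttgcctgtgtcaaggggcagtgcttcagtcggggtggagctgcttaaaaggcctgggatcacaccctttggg
HERC5 (chr4:88456869-88457118, plus strand): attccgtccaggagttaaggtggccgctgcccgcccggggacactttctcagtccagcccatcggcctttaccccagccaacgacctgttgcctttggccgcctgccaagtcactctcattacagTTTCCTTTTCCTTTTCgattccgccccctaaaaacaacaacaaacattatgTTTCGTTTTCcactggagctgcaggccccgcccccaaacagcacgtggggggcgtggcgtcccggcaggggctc
PLSCR1 (chr3:146544608-146544857, minus strand): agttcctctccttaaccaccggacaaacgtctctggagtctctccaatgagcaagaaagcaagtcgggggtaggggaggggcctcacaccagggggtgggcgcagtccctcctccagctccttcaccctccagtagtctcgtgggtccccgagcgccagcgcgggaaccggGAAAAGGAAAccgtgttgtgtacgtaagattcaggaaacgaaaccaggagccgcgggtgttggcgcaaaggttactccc
IFIT1 and IFI27 each held a pair of matches a few bases apart, in the same orientation in IFIT1 and in opposite orientations in IFI27. HERC5 held 3 matches, of which 2 overlapped. IFITM1 and PLSCR1 held 1 each. Matches were thus found in genes called in both directions, and a match describes these letters only.

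Several members are neighbours in the genome, in the gene order of RefSeq GRCh38.p14. IFIT2, IFIT3, IFIT1 and IFIT5 lie together on chromosome 10, with 1 coding gene between IFIT3 and IFIT1 and none between the others. In SKOV3 their means were 0.95, 0.25, 2.81 and 0.55, and of these brightest probes that of IFIT1 was called, while the other probe of IFIT5 and, with processed intensities, IFIT2 were called higher too. IFITM2, IFITM1 and IFITM3 on chromosome 11 are adjacent and had means of -0.28, 1.29 and 0.26. OAS1, OAS3 and OAS2 on chromosome 12 are adjacent, and OAS3 at -1.08 stood between OAS1, which was not tested, and OAS2 at 0.01. IFI44L and IFI44, adjacent on chromosome 1, had means of 0.44 and -0.81 and were past the adjusted p threshold in opposite directions. HERC6 and HERC5 on chromosome 4 were both lower, at -0.57 and -1.24.

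**Figure D2:**
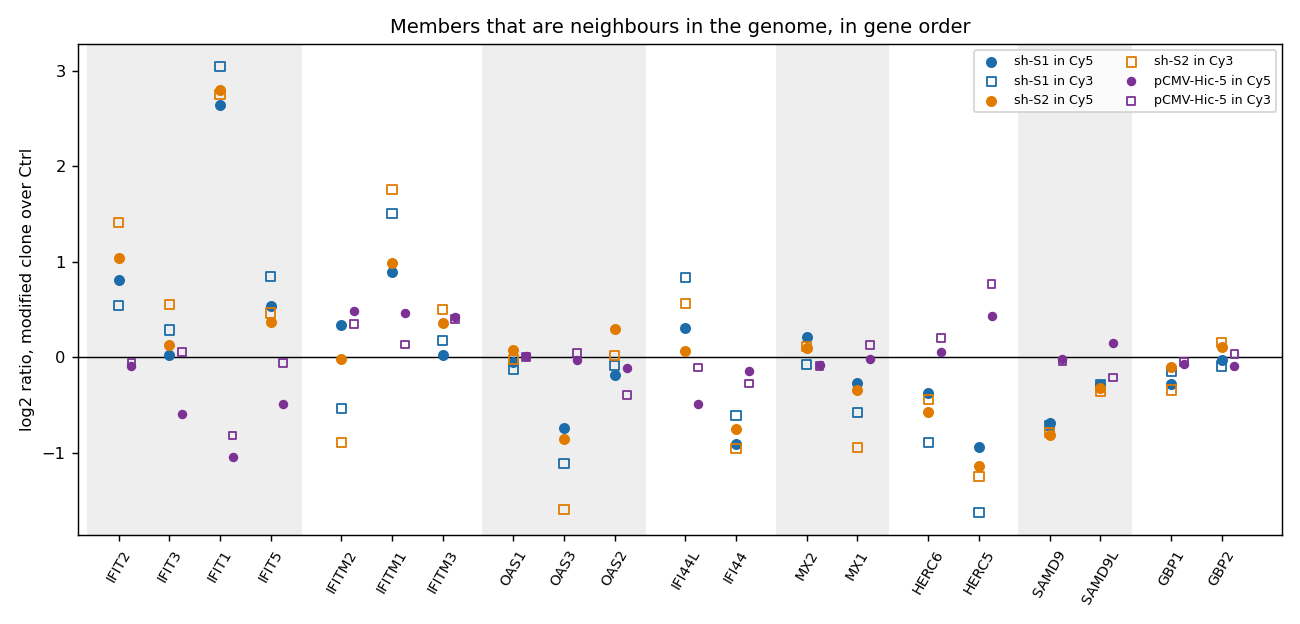
Log2 ratio of modified clone over Ctrl (y axis) for members that lie next to each other in the genome, in gene order along the x axis, with shading to separate clusters. Blue and orange points are the SKOV3 arrays of sh-S1 and sh-S2 and purple points the A2780s arrays, with filled circles for the clone in Cy5 and open squares for the clone in Cy3. IFIT1, at 2.65 to 3.05 in SKOV3, stands above the other IFIT genes, and IFI44L and IFI44 lie on opposite sides of 0.

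In A2780s the same genes changed little in the RNA labelled pCMV-Hic-5. Of 39 members that passed the filter, HERC5 was called higher, where 3.43% of all genes were, and IFIT1 was called lower, where 1.42% of all genes were. IFIT1 had ratios of -1.05 and -0.82, a mean of -0.93 or a 1.91-fold lower level. Its level was 13.5 and 13.8 in the Ctrl and 12.4 and 13.0 in the clone, which are repeat measurements of 1 RNA each. HERC5 had ratios of 0.43 and 0.77, a mean of 0.60 or a 1.52-fold higher level, just past the threshold. With normexp fitted on all spots of the array, the mean of HERC5 was 0.39 and the call was lost. All other members that passed lay between the means of IFIT1 and HERC5, and IFI27 had ratios of -0.04 and 0.32. A second probe of USP18 had a mean of 0.63 and was past 1.5-fold, while the brighter probe had 0.44. The median over all 44 members was -0.03, beside -0.02 over all genes. A limma fit over all 3 clones has to assume that the lone A2780s clone varies as the SKOV3 clones do, so no calls in A2780s were taken from it.

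The ratios of the shRNA clones and of the Hic-5 clone were then compared directly, in the same limma fit, over the 38 members measured in both lines. The difference (SKOV3 minus A2780s) had to reach a size of 1 and pass the same limit on adjusted p, which 2 members did on the higher side (5.26%, all genes 3.9%) and 4 on the lower side (10.5%, all genes 4.96%). IFIT1 differed by 3.75 (SE 0.16, adjusted p = 0.000163), being higher in SKOV3 and lower in A2780s. IFI27 differed by -3.19 (SE 0.17, adjusted p = 0.000281), HERC5 by -1.84 (SE 0.16, adjusted p = 0.00137), PLSCR1 by -1.46 (SE 0.18, adjusted p = 0.00485) and OAS3 by -1.08 (SE 0.19, adjusted p = 0.0152). HERC5 was lower on all 4 SKOV3 arrays and higher on both A2780s arrays. IFIT2 differed by 1.03 (SE 0.25, adjusted p = 0.0406), close to both thresholds, and did not pass with the mean over its probes (0.41), with normexp fitted on all spots (0.98), with the clone in Cy3 only (adjusted p = 0.0938) or without sh-S2 (0.75). OAS3 was lost as a mean over its probes (-0.73), with the clone in Cy5 only (-0.77) and without sh-S2 (-0.93). IFITM1 differed by 0.99 (SE 0.17, adjusted p = 0.0142), just short of 1. BST2 differed by -1.86 (SE 0.55) and did not pass (adjusted p = 0.0706), and IRF7 was not tested because it was near background in A2780s. With the processed intensities 16 members were called for the difference, 4 higher (10.5%, all genes 7.31%) and 12 lower (31.6%, all genes 7.22%), the 6 named here among them, and the differences of HERC5, OAS3, PLSCR1 and IFIT2 were then -4.35, -2.74, -2.32 and 1.89.

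**Figure D3:**
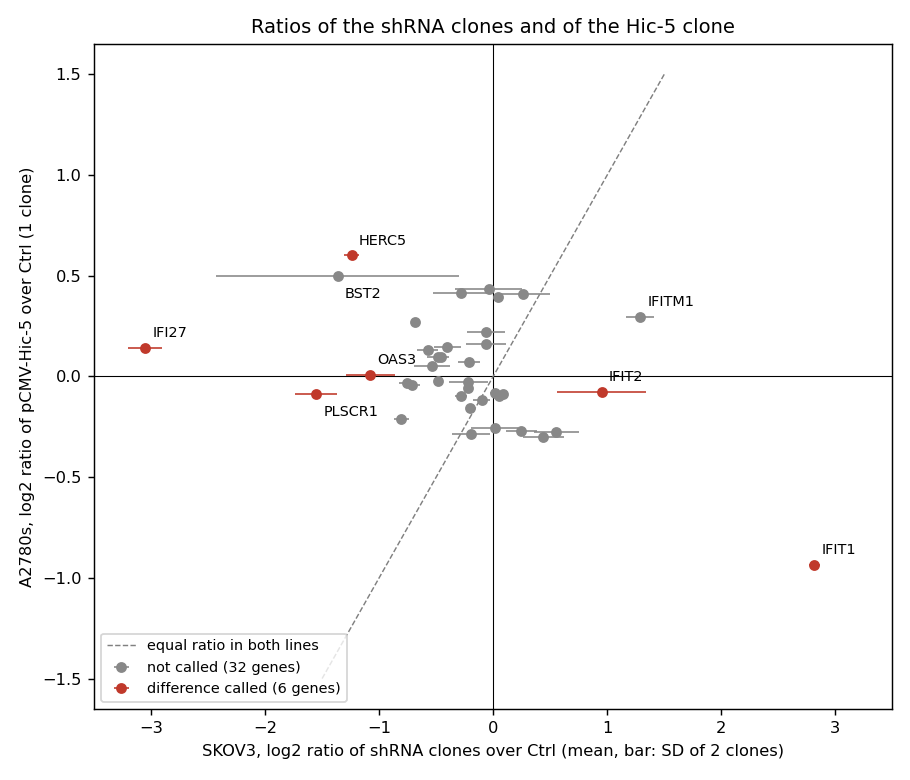
Mean log2 ratio in SKOV3 (x axis, bars are the SD of 2 clones) against that in A2780s (y axis, 1 clone, an axis that spans a smaller range) for the 38 members measured in both lines. The 6 genes whose difference was called are red, and the dashed line marks equal ratios. IFIT1 lies at 2.81 and -0.93 and HERC5 at -1.24 and 0.60, on opposite sides of 0 in the 2 lines.

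The lines also differed in how much of these RNAs their Ctrl clones held. Levels are given after normexp, loess and quantile scaling of the A values between arrays, and no test was made, since each line had 1 Ctrl RNA on a slide of its own. The median difference over the 44 members (A2780s Ctrl minus SKOV3 Ctrl) was -0.51, beside -0.0042 over all genes. With each channel scaled to its 75th percentile in place of this, the members' median was -1.11 and that of all genes -0.96, so that the members lay lower than the rest by a smaller amount. IFI27 had levels of 13.6, 13.3, 13.7 and 13.3 in the SKOV3 Ctrl and of 7.67 and 7.29 in the A2780s Ctrl, a difference of -6.00. The clones labelled sh-S1 and sh-S2, at a mean of 10.4, lay between the 2 Ctrl clones. IRF7 differed by -4.18, with 11.2, 11.1, 11.3 and 10.4 in the SKOV3 Ctrl and 6.87 and 6.77 in the A2780s Ctrl, where it was well above background on 1 of 2 arrays. PLSCR1 differed by -2.52, BST2 by -2.12 and IFITM2 by -1.80. Under the 75th percentile scaling IFITM2 was at -1.07 and BST2 at -1.72, or -0.11 and -0.77 relative to all genes.

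On the other side, IFIT1 was 2.75 higher in the A2780s Ctrl, at 13.5 and 13.8, than in the SKOV3 Ctrl, at 10.8 to 11.0. With the levels scaled in this way, the level of IFIT1 in the shRNA clones, a mean of 13.7, lay within 0.1 of the mean of the A2780s Ctrl. IFIT2 differed by 1.72, IFIT3 by 0.97 and IFI44L by 0.93. Under the other scaling IFIT1 was at 3.55 and IFIT2 at 2.02, or 4.51 and 2.97 relative to all genes. IFIT3 was then at 0.19 and IFI44L at 0.50, or 1.14 and 1.45 relative to all genes. EPSTI1 had a difference of 0.81 that rested on 1 of its A2780s spots, and under the other scaling it was at -0.97, level with the -0.96 of all genes. It was not well above background in any modified clone, and the Ctrl measured it on 2 of 4 SKOV3 and 1 of 2 A2780s arrays. The mean over all Ctrl arrays lay 1.102-fold above the clones in SKOV3 and 1.66-fold above the detection limit of the clone in A2780s. These are not firm bounds, since spots at background entered both Ctrl means. In A2780s the Ctrl was at 6.45 and 8.32 on the 2 arrays. Another probe of EPSTI1 was at 6.26 in the A2780s Ctrl and 6.31 in the clone, not well above background in either.

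**Figure D4:**
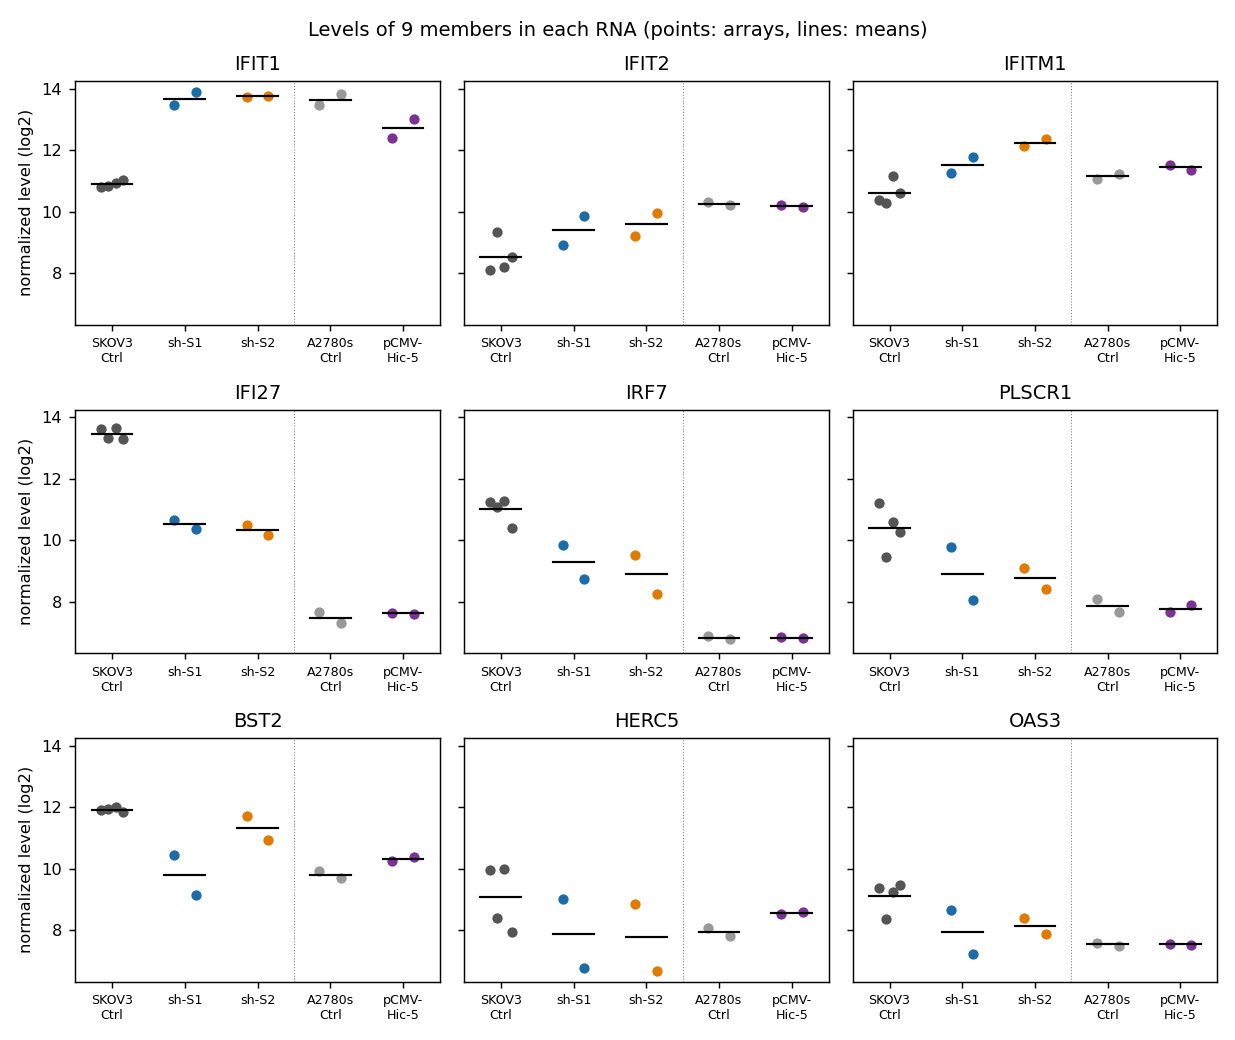
Normalized log2 level (y axis) of the 9 members called in a comparison, in the SKOV3 Ctrl (4 arrays), sh-S1 and sh-S2 (2 arrays each), the A2780s Ctrl and pCMV-Hic-5 (2 arrays each). Points are arrays and lines are means, and the arrays of an RNA are repeat measurements of it. IFIT1 stands near 10.9 in the SKOV3 Ctrl and at a mean of 12.7 or more in all other RNAs, while IFI27, IRF7 and PLSCR1 step down from the SKOV3 Ctrl through the shRNA clones to A2780s.

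Genes upstream of the response were examined in a list of 35 pathway genes, of which 34 were on the array and 26 were tested in SKOV3. None was called higher (all genes 3.47%), and 2 were called lower (7.69%, all genes 4.59%). By adjusted p alone 5 of the 26 were higher (all genes 16.2%) and 7 lower (all genes 16.3%). Of the 7 interferon genes on the array, 5 were not tested for low signal, and the other two, IFNK and IFNL2, had means of 0.08 and -0.06 and did not pass. IFNGR1, the ligand-binding chain of the interferon gamma receptor, had ratios of -1.74 and -1.07 for sh-S1 and of -1.74 and -0.84 for sh-S2, with a mean of -1.35 (SE 0.10, adjusted p = 0.000148). IFNAR1, a chain of the type I receptor, had a mean of 0.58 (SE 0.13, adjusted p = 0.0139). JAK1, a kinase of the interferon receptors, had a mean of -0.52 (SE 0.09, adjusted p = 0.00641), lower but short of 2-fold. STING1, the adaptor that relays the sensing of cytosolic DNA, had ratios of -1.12 and -1.74 for sh-S1 and of -0.89 and -1.73 for sh-S2, with a mean of -1.37 (SE 0.10, adjusted p = 0.00014). TICAM1, the adaptor of TLR3, had a mean of -0.99 (SE 0.09, adjusted p = 0.000476), just short of 2-fold.

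In A2780s, 28 pathway genes passed the filter. SOCS1, an inhibitor of JAK kinases, was called higher (all genes 3.43%) with ratios of 0.64 and 0.78, and the phosphatase gene PTPN11 was called lower (all genes 1.42%) with ratios of -0.87 and -0.36. The difference between the lines was called for IFNGR1 (-1.81, SE 0.16, adjusted p = 0.00149), STING1 (-1.26, SE 0.17, adjusted p = 0.00569) and TICAM1 (-1.33, SE 0.16, adjusted p = 0.00414), which is 3 of 24 genes tested (12.5%, all genes 4.96%), and for none on the higher side, where 3.9% of all genes were called.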

How the data were processed

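Expression was measured on 6 two-colour Agilent whole-genome arrays. The authors deposited unnormalized spot intensities with local background for both dyes, processed intensities, and log10 ratios of Cy5 over Cy3 made from the processed intensities, which the deposited series values repeat to within 0.005. The submitters' processing notes name Agilent Feature Extraction 8.5.1.1 and the file headers 10.7.3.1. The paper does not name its normalization.

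Mean intensities were corrected in R 4.3.3 with limma 3.58.1 by normexp (offset 50) and normalized by loess within arrays. Background-flagged spots and spots with a local background over 1000 (39, on 1 A2780s array) stayed out of the normexp fit, a choice made after the data were seen. Control spots were dropped, as were 121 to 362 outlier-flagged spots on each array, and repeated spots of a probe were averaged. Ratios were turned to clone over Ctrl by the labelled dyes, and dye-swapped arrays were averaged to 1 replicate. A probe entered a line's test if every array of the line showed the Ctrl well above background, or both arrays of a clone did so for that clone, which left 25091 probes in SKOV3, 30530 in A2780s and 23863 in both. P-values from lmFit and eBayes were adjusted (Benjamini-Hochberg) over these, and the fits were tested on simulated data. The number of arrays limits the precision, and p-values measure only the spread between the clones. No member was saturated.

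Named were members called in any comparison, the 5 with the largest differences in Ctrl level in each direction, and any member whose probes pass the fold threshold with opposite signs. Other members were named for their role, and the second probes of IFIT5, USP18, EIF2AK2, SAMD9 and EPSTI1 after their values were seen. The members and gene lists were chosen with earlier results of these data known. The alternatives are given in the closing section.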

Additional observations from a re-analysis of the deposited data

Results flagged for a closer look

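The responses of 6 members differed between the lines by the limma test of the difference itself, SKOV3 log2 ratio minus A2780s log2 ratio, which assumes that the lone A2780s clone varies as the SKOV3 clones do. IFIT1 (3.75) and IFIT2 (1.03) were on the higher side. IFI27 (-3.19), HERC5 (-1.84), PLSCR1 (-1.46) and OAS3 (-1.08) were on the lower side. The A2780s means of these genes lay between -0.93 and 0.60. The lines differ in construct (shRNA or Hic-5 vector), in slide and in cell line, and these cannot be told apart. No group had the 4 to 10 replicates needed to look for single deviating samples.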

How the results depend on the processing

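No paired analysis was possible because the labels give no replicate numbers, the arrays of a clone are dye swaps of the same RNAs and both SKOV3 clones share 1 Ctrl. In SKOV3, 8 members were called; processed intensities and the deposited series values gave 18 each, the adjusted p alone 21 and the clone in Cy5 only 5. Without sh-S1 or sh-S2, by fold alone, the count was 7 to 8. The SKOV3 median of -0.21 was -0.51 with processed intensities, -0.47 with the series values, -0.36 with median centring, -0.12 with the clone in Cy5 alone, -0.27 in Cy3 alone, and -0.22 to -0.18 without a clone. In A2780s, 2 members were called, 1 with normexp fitted on all spots, 4 on either array alone and 0 in the pooled fit, and the median was 0.046 with the clone in Cy3 alone. For the line difference, 6 members were called, 16 with processed intensities or series values, 10 with median centring, 10 with the clone in Cy3 alone and 5 to 8 without a clone. With median centring, 2 were higher (5.26%, all genes 3.46%) and 8 lower (21.1%, all genes 7.54%). No share over all genes is given for the counts without a clone, with the clone in Cy3 alone or on either A2780s array alone. The Ctrl level difference was -1.11 with 75th percentile scaling, beside -0.96 over all genes. EPSTI1 was at -0.97 with that scaling, level with all genes, and turned to -0.30 with the Ctrl in Cy3. Of the other values of named members, 166 kept their direction and call, 16 lost and 4 gained a call, and 8 moved. IFIT1 and IFI27 in SKOV3 stayed called under all 10 alternatives, at 2.61 to 3.14 and -3.34 to -2.91. The causes were not tested. Dim Cy5 signal on the SKOV3 arrays limits the weaker probes.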
